A study of Mus musculus with 4 samples.

Results

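The semaphorins, plexins and neuropilins examined here are 31 genes of axon guidance and vessel patterning: 20 semaphorins, 9 plexins and 2 neuropilins. They were chosen by name, as the rows of the deposited tables that carry one of these gene symbols, and all 31 were found among the 19968 genes listed in both tables. All 31 also passed the expression filter that left 16725 genes for testing. RNA was sequenced from dissected cerebral cortex at E15, in embryos of the C57BL/6 strain. The cKO group carried the genotype Prdm16cKO, a conditional deletion of Prdm16, which encodes a zinc-finger regulator expressed in radial glia, and gave 2 libraries, called cKO 1 and cKO 2. The control group carried the floxed alleles, Prdm16fl/fl. Of its 2 samples, 1 library, called floxed, was analysed here. The titles of 1 cKO and 1 floxed sample carry the added word Blood, and the tables do not show which libraries those are. The labels name neither the Cre line nor the deleted exon, and do not say whether each library stands for its own embryo. The series asked how Prdm16 acts on communication between neurons and vessels in the developing brain.

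Semaphorins are guidance cues with a conserved sema domain. Class 3 members are secreted, classes 4, 5 and 6 span the membrane, and Sema7a is tethered to it by a lipid anchor. Plexins are their receptors and carry a cytoplasmic domain that acts on small GTPases of the Ras and Rap families, while neuropilins serve as binding partners of A-type plexins for most class 3 ligands and also bind VEGF on endothelial cells. In the embryonic cortex these genes are known for steering axons, orienting dendrites and migrating neurons, and shaping the vessel network.

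The cKO 1 library totalled 19518174 counts, cKO 2 totalled 18581791 and floxed 17841685, and levels are given as CPM, the count scaled to these totals. Prdm16 itself had 34.6 CPM in cKO 1 and 24.1 CPM in cKO 2, against 30.2 CPM in floxed. Its ratio to floxed was 1.15 in cKO 1 (95% counting interval 1.02 to 1.29) and 0.798 in cKO 2 (0.702 to 0.906). The level in cKO 1 thus goes against the label. Counts cover the whole gene, so reads on deleted and kept exons could not be told apart, and the reason was not tested. In the edgeR fit described below, the log2 fold of Prdm16 in cKO against floxed was -0.04 (SE 0.24). Groups are named as labelled throughout, without a check that settles the label of either cKO library. The cKO libraries also stood apart from each other in markers of non-neural cells: the summed level of 13 meningeal and fibroblast markers was 1332 CPM in cKO 1 and 94.99 CPM in cKO 2, against 856 CPM in floxed, and that of 15 endothelial markers was 564 and 307 CPM, against 475 CPM. Erythroid markers summed to 1602 and 1289 CPM, against 1756 CPM. Radial glia and neuronal markers were present in every library. Upper-layer neuron markers summed to 554 CPM in cKO 1 and 534 CPM in cKO 2, against 737 CPM in floxed, and radial glia markers to 2415 and 2372 CPM, against 1758 CPM. In bulk tissue, fewer cells of a type and less RNA per cell cannot be told apart.

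**Figure D1:**
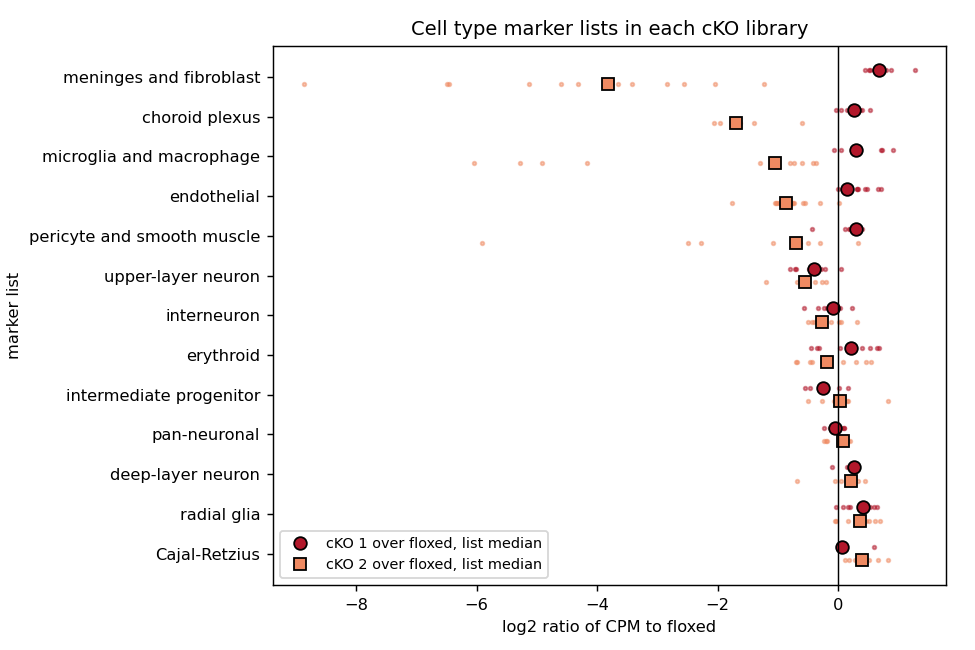
Log2 ratio of CPM in each cKO library to floxed (x axis) for cell type marker lists (y axis), with cKO 1 as circles and cKO 2 as squares; small points are single genes with a finite ratio and outlined symbols are list medians. The meningeal list has a median of 0.68 in cKO 1 and -3.81 in cKO 2, and the radial glia median lies above 0 in both (0.40 and 0.36).

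Most of the family was expressed, and levels spanned a wide range. Per kilobase of annotated exon, which allows different genes to be compared, the mean over the 3 libraries was highest for Sema6c, a transmembrane ligand, at 37.0 CPM per kb, and lowest for Plxnb3, a B-type plexin known from glia, at 0.0655 CPM per kb. Below Sema6c came the receptor genes Plxnb2 and Plxna3 (34.4 CPM per kb each), Sema7a (32.7), Sema4c (31.6) and Sema4g (29.4), and the library ranges of neighbours among these 6 genes overlapped, so their order is not resolved. Over the whole order of 31 genes, neighbours had overlapping library ranges in 22 of 30 pairs. The secreted class 3 ligands were mostly low on this scale, with Sema3f at 15.05, Sema3c at 4.13, Sema3a at 2.17 and the other 4 between 0.201 and 1.40 CPM per kb.

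**Figure D2:**
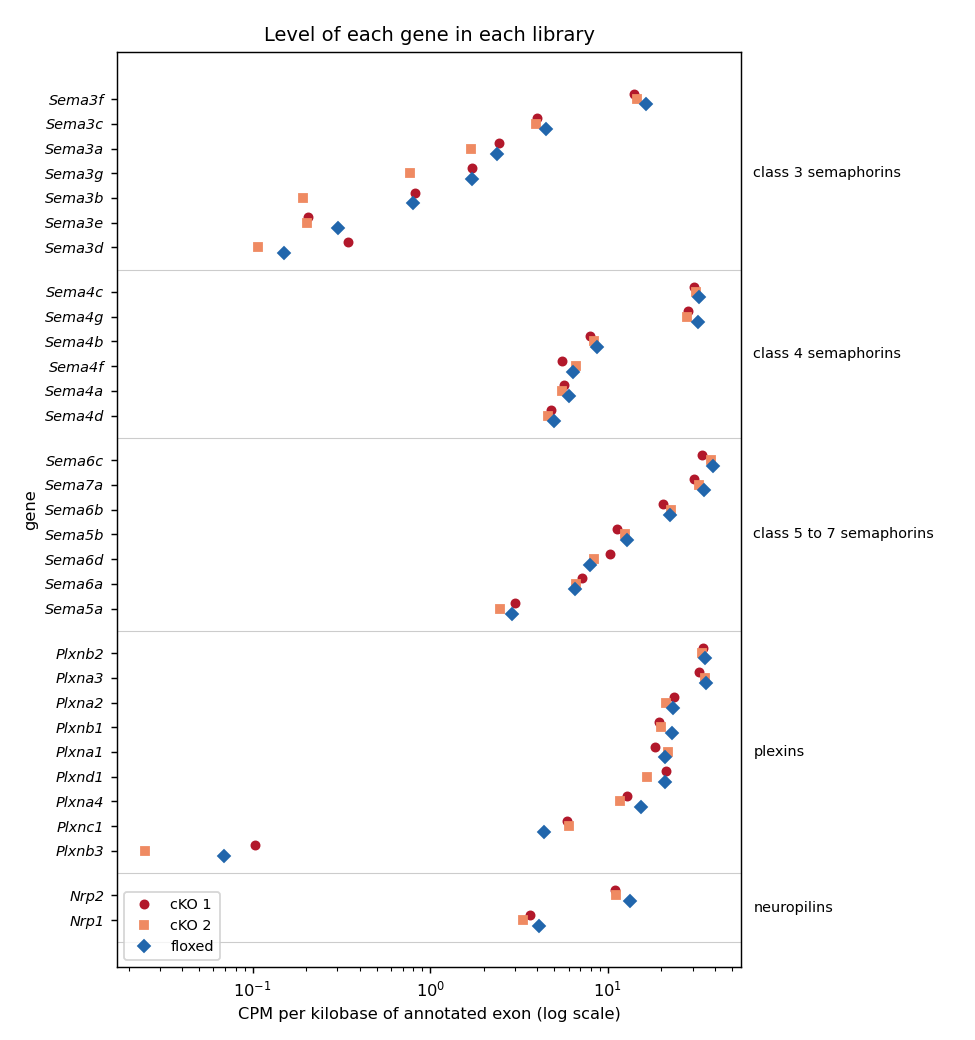
Level of each gene in CPM per kilobase of annotated exon (x axis, log scale) in cKO 1 (circles), cKO 2 (squares) and floxed (diamonds), grouped by family and ordered by the mean over libraries. Symbols of a gene lie close together for most genes, with Sema3b, Sema3d, Sema3g and Plxnb3 showing the widest separations.

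None of the 31 genes passed the test of cKO against floxed. The edgeR quasi-likelihood test, with 1 residual degree of freedom, called 0 members at a Benjamini-Hochberg adjusted p under 0.05, against 1 of 16725 genes overall (0.00598%, the pentraxin gene Ptx3), and 2 members, Plxnc1 and Plxna4, had an unadjusted p under 0.05, as did 1.53% of all tested genes. DESeq2 also called 0 members, against 0.0299% of all genes, and limma-voom 0, against 0.00598%, with 0 members (0.586% of all genes) and 1 member (1.58%) at an unadjusted p under 0.05. The median fitted log2 fold of the members was -0.11, against -0.01 over all tested genes. This test rests on the spread between the cKO libraries alone, since floxed has 1 library.

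Each cKO library was also set against floxed on its own. These comparisons share the floxed library, carry no test, and their 95% intervals (exact, Clopper-Pearson) cover counting error only. A gene was called past 1.5-fold when its CPM ratio reached 1.5 or its inverse and its interval left out 1. In cKO 1, 1 member (Sema3d) was called higher, where 3.72% of all tested genes were, and 0 were called lower, where 2.34% were. In cKO 2, 0 members were called higher, where 2.4% of all tested genes were, and 2 (Sema3b and Sema3g) were called lower, where 9.62% were. These shares are no larger than the background. The called genes are all class 3 ligands and all below 10 CPM. Of the 26 members that reached 10 CPM in a library, 0 were called in either comparison, where 1.45% of genes at that level were called higher and 0.507% lower in cKO 1, and 0.746% higher and 4.07% lower in cKO 2. With the call placed at an absolute log2 ratio of 0.32 in place of 0.58, 3 members were higher in cKO 1 (Sema3d, Sema6d and Plxnc1, background 8.03%) and 0 lower (4.78%), while 1 was higher in cKO 2 (Plxnc1, 5.63%) and 5 were lower (Sema3a, Sema3b, Sema3g, Plxna4 and Plxnd1, 13.9%).

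Small differences were more common than large ones. The median log2 ratio of the 31 members was -0.13 in cKO 1 and -0.13 in cKO 2, against 0.01 and -0.04 over all tested genes. In cKO 1, 21 members lay below floxed and 10 above, and 25 lay within 1.2-fold of it. In cKO 2, 25 lay below and 6 above, and 21 lay within 1.2-fold. Over all tested genes, 47.6% lay below floxed in cKO 1 and 56.5% in cKO 2, and 67.4% (11273) and 60.8% (10163) lay within 1.2-fold. Among tested genes of at least 10 CPM, 49.2% and 52.6% lay below floxed, and 83.9% and 78.9% lay within 1.2-fold. Of the 26 members of at least 10 CPM, the interval left out 1 on the lower side for 14 in cKO 1 (background 21.6% of genes at that level) and for 12 in cKO 2 (26.4%), and on the higher side for 3 in cKO 1 (22.4%) and 1 in cKO 2 (21.8%). The interval narrows with depth, so these counts depend on how abundant the members are, and the shared floxed library enters both.

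**Figure D3:**
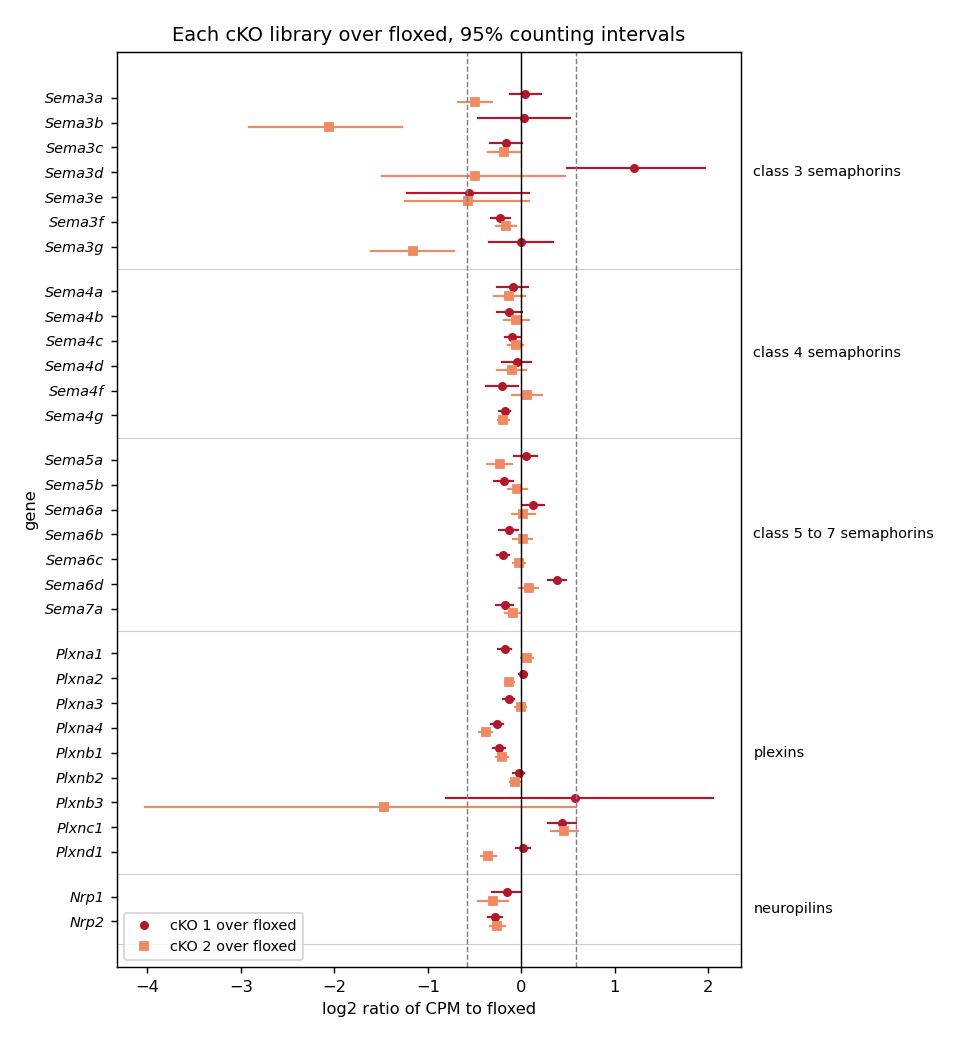
Log2 ratio of CPM to floxed (x axis) for each gene in cKO 1 (circles) and cKO 2 (squares), with 95% exact counting intervals as lines and 1.5-fold as dashed lines. Plxnc1 lies right of 0 and Plxna4, Plxnb1 and Nrp2 lie left of 0 in both libraries. Sema3b, Sema3g and Plxnb3 lie beyond the left dashed line in cKO 2 alone, and the interval of Plxnb3 spans 0.

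Among the secreted class 3 ligands, the low-level genes separated the cKO libraries from each other. Sema3b, a secreted ligand that signals through neuropilins (chromosome 9, 107597674 to 107609229, minus strand, GRCm38), drew 76 counts in cKO 1 and 17 in cKO 2, against 68 in floxed, or 3.89 and 0.915 CPM, against 3.81 CPM. The floxed value lay between the cKO values, and cKO 2 stood apart. Its CPM ratio to floxed was 1.02 in cKO 1 (interval 0.727 to 1.44) and 0.240 in cKO 2 (0.132 to 0.413). The log2 fold of the fit was -0.66 (SE 0.74, edgeR adjusted p = 1). Sema3g, known from arterial endothelium (chromosome 14, 31217860 to 31230350, plus strand), had 152 and 65 counts, against 139 in floxed, or 7.79 and 3.498 CPM, against 7.79 CPM. The cKO 1 and floxed levels were level with each other and cKO 2 was the low library. The ratio was 0.9996 in cKO 1 (0.789 to 1.27) and 0.449 in cKO 2 (0.329 to 0.607), with a fitted log2 fold of -0.46 (SE 0.49, edgeR adjusted p = 1).

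Sema3d, another secreted ligand (chromosome 5, 12383385 to 12588948, plus strand), had 58 counts in cKO 1 and 17 in cKO 2, against 23 in floxed, or 2.97 and 0.915 CPM, against 1.29 CPM. Here cKO 1 was the high library, and floxed again lay between the cKO values. The ratio was 2.31 in cKO 1 (1.40 to 3.92) and 0.710 in cKO 2 (0.356 to 1.39), with a fitted log2 fold of 0.59 (SE 0.78, edgeR adjusted p = 1). The authors' deposited tables mark Sema3d as significant for cKO 1 (log2 fold 1.2) and Sema3b and Sema3g for cKO 2 (-2.06 and -1.16). None of the other 28 members is marked in either table. The mark does not follow the authors' adjusted p alone. Sema6d in cKO 1 (log2 fold 0.38) had a smaller one than Sema3d and was not marked. Plxna4 and Plxnd1 in cKO 2 (-0.38 and -0.35) had smaller ones than Sema3b and Sema3g and were not marked. Set against cKO 2 in place of floxed, cKO 1 had 4 members called higher past 1.5-fold (Sema3b, Sema3d, Sema3g and Plxnb3, where 10.9% of all tested genes were) and 0 lower (2.15%). Sema3b was 4.26 times as high in cKO 1 as in cKO 2 (2.49 to 7.68), Sema3d 3.25 times (1.87 to 5.95) and Sema3g 2.23 times (1.65 to 3.02). Among these 3 genes, Sema3d lay above floxed in cKO 1, while Sema3b and Sema3g were near it there. Most markers of 5 non-neural cell types lay above floxed in cKO 1 and below it in cKO 2. These were 13 of 13 and 13 of 13 meningeal markers, 14 of 15 and 14 of 15 endothelial markers, 8 of 9 and 8 of 9 tested pericyte and smooth muscle markers, 9 of 10 and 10 of 10 microglial and macrophage markers (medians 0.30 and -1.05), and 5 of 6 and 6 of 6 choroid plexus markers (0.25 and -1.69). Of 8 erythroid markers, 5 lay above floxed in cKO 1 and 4 below it in cKO 2. The part of these cell types in Sema3b, Sema3d and Sema3g was not tested. No meningeal or endothelial marker was at 0 in any library, and Tagln, a smooth muscle marker, was at 0 in cKO 2.

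The other class 3 ligands were closer across libraries. Sema3a, the repellent that signals through neuropilin-1, had 663 counts in cKO 1 and 435 in cKO 2, against 588 in floxed, or 34.0 and 23.4 CPM, against 32.96 CPM. Its ratio was 1.03 in cKO 1 (0.921 to 1.15) and 0.710 in cKO 2 (0.626 to 0.805), so cKO 2 was again the low library. Sema3f, the main neuropilin-2 ligand, had 1428 and 1413 counts, against 1523, or 73.2 and 76.04 CPM, against 85.4 CPM, with ratios of 0.857 (0.797 to 0.922) and 0.891 (0.828 to 0.958). Sema3c, an attractant or repellent depending on the neuron, had 554 and 522 counts, against 569, or 28.4 and 28.1 CPM, against 31.9 CPM. Both cKO libraries lay below floxed for Sema3f and Sema3c, and neither gene passed the test (edgeR adjusted p = 1 for each). Sema3e, which binds plexin-D1 without a neuropilin, had only 37 and 35 counts, against 50 in floxed, with ratios of 0.676 (0.430 to 1.06) and 0.672 (0.424 to 1.06), and the intervals span 1.

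Sema3b, Sema3d and Sema3e lie near more abundant class 3 genes, while Sema3g is the only member on chromosome 14. Sema3d, Sema3a and Sema3e follow each other on chromosome 5 with 0 other coding genes of the tables between them, over gaps of 536.47 kb and 422.71 kb, and Sema3c lies further along. Along this cluster, Sema3d was high in cKO 1, Sema3a was low in cKO 2, and Sema3e was alike in the cKO libraries. Sema3b and Sema3f lie 72.27 kb apart on chromosome 9 with 3 coding genes between them. Sema3f was nearly level between the cKO libraries (ratio of cKO 1 to cKO 2 0.962, 0.893 to 1.04), while its neighbour Sema3b had the widest difference of all semaphorins.

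The class 4 ligands, which span the membrane, varied least. All 6 lay within 1.2-fold of floxed in each library, and their log2 ratios ranged from -0.21 to -0.05 in cKO 1 and from -0.19 to 0.06 in cKO 2. Sema4g had 4773 and 4498 counts, against 4941 in floxed, or 245 and 242 CPM, against 277 CPM. Its ratio was 0.883 in cKO 1 (0.848 to 0.919) and 0.874 in cKO 2 (0.839 to 0.910), with a fitted log2 fold of -0.19 (SE 0.13, edgeR adjusted p = 1). Both cKO libraries lay below floxed. Sema4c, a ligand of plexin-B2, had 2748 and 2679 counts, against 2683, or 141 and 144 CPM, against 150 CPM. Sema4b had 870 and 873 counts, against 869, or 44.6 and 47.0 CPM, against 48.7 CPM. Over 7.27% of its exon length, Sema4c overlaps the antisense gene D430040D24Rik, which had 108 and 93 counts, against 85 in floxed. Sema4a (30.7 and 29.9 CPM, against 32.7 CPM), Sema4d, the classic plexin-B1 ligand (36.8 and 35.5 CPM, against 38.1 CPM), and Sema4f (29.3 and 35.1 CPM, against 33.7 CPM) were close to floxed as well.

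Among the membrane-bound ligands of classes 5 to 7, Sema6d differed most, and it was chosen for a full account after its values were seen. Sema6d, a transmembrane ligand of plexin-A1, had 2127 counts in cKO 1 and 1642 in cKO 2, against 1490 in floxed, or 109 and 88.4 CPM, against 83.5 CPM. Both cKO libraries lay above floxed, by a ratio of 1.305 in cKO 1 (1.22 to 1.40) and 1.06 in cKO 2 (0.986 to 1.14), and the second interval spans 1. The log2 fold of the fit was 0.24 (SE 0.17, edgeR adjusted p = 1). Sema6a, a ligand of plexin-A2 and plexin-A4, had 62.5 and 58.1 CPM, against 57.3 CPM. Sema6c had 3927 and 4219 counts, against 4113, or 201 and 227 CPM, against 231 CPM. Sema6b had 1584 and 1673 counts, against 1590, or 81.2 and 90.0 CPM, against 89.1 CPM. In Sema6a, Sema6b and Sema6c, cKO 1 was the library that departed from floxed, with cKO 2 within 0.03 of it on the log2 scale.

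Sema7a, the lipid-anchored ligand of plexin-C1, had 1976 and 1998 counts, against 2041 in floxed, or 101 and 108 CPM, against 114 CPM, with ratios of 0.885 (0.831 to 0.942) and 0.940 (0.883 to 1.0). Sema5b, a repellent with thrombospondin repeats, had 79.7 and 88.1 CPM, against 90.8 CPM. Its relative Sema5a had 55.7 and 46.0 CPM, against 54.0 CPM, and floxed lay between the cKO values.

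On the receptor side, Plxnc1 had the smallest unadjusted p of all members and was the one plexin whose interval lay above 1 in either library. Plxnc1 encodes plexin-C1, the receptor of Sema7a (chromosome 10, 94790866 to 94944835, minus strand). It had 962 counts in cKO 1 and 932 in cKO 2, against 650 in floxed, or 49.3 and 50.2 CPM, against 36.4 CPM. The cKO libraries were nearly level with each other (49.7 ± 0.615 CPM, SD, n = 2) and both lay above floxed. The ratio was 1.35 in cKO 1 (1.22 to 1.497) and 1.38 in cKO 2 (1.24 to 1.52), with a fitted log2 fold of 0.45 (SE 0.15, edgeR adjusted p = 1). Its ligand gene Sema7a lay below floxed in each library, as given above. The deep-layer neuron and radial glia lists also had medians above floxed in both cKO libraries (0.25 and 0.20, and 0.40 and 0.36). Of the deep-layer markers, 7 of 8 lay above floxed in cKO 1 and 6 of 8 in cKO 2. Of the radial glia markers, 9 of 10 and 8 of 10 did. The Cajal-Retzius list had medians of 0.06 and 0.39. The part of these cell types in Plxnc1 was not tested.

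The A-type plexins form signalling complexes with neuropilins. Plxna4 (chromosome 6, 32144268 to 32588192, minus strand) drew 3510 counts in cKO 1 and 3079 in cKO 2, against 3843 in floxed, or 180 and 166 CPM, against 215 CPM. Both cKO libraries lay below floxed, at a ratio of 0.835 in cKO 1 (0.797 to 0.874) and 0.769 in cKO 2 (0.733 to 0.807). The log2 fold of the fit was -0.32 (SE 0.13, edgeR adjusted p = 1). Plxna2, with the most counts of any member, had 7897 and 6803 counts, against 7133, or 405 and 366 CPM, against 400 CPM. Plxna3 had 4975 and 5179 counts, against 5000, or 255 and 279 CPM, against 280 CPM. Plxna1 had 167 and 197 CPM, against 189 CPM. For Plxna1 and Plxna2, floxed lay between the cKO values. Over 10.7% of its exon length, Plxna1 overlaps the antisense gene Gm26811, which had at most 15 counts in a library.

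Of the B-type plexins, receptors of class 4 ligands, the abundant Plxnb1 and Plxnb2 lay within 1.2-fold of floxed in both cKO libraries. Plxnb1, the receptor of Sema4d, had 3648 and 3550 counts, against 3923 in floxed, or 187 and 191 CPM, against 220 CPM, with ratios of 0.850 (0.812 to 0.889) and 0.869 (0.830 to 0.910) and a fitted log2 fold of -0.22 (SE 0.13, edgeR adjusted p = 1). Both cKO libraries lay below floxed. Plxnb2 had 5198 and 4827 counts, against 4842, or 266 and 260 CPM, against 271 CPM. Plxnb3 had 13 counts in cKO 1 and 3 in cKO 2, against 8 in floxed, with ratios of 1.49 (0.571 to 4.13) and 0.360 (0.0615 to 1.5). No difference from floxed was detectable at this depth. The ratio of cKO 1 to cKO 2 was 4.13 (1.13 to 22.6), which rests on 13 against 3 counts, and its interval covers counting error only.

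Plxnd1, the receptor of Sema3e and a gene of endothelial cells and some neurons (chromosome 6, 115954811 to 115995005, minus strand), was also chosen for a full account after its values were seen. It had 156 CPM in cKO 1 and 120 CPM in cKO 2, against 154 CPM in floxed. Its ratio was 1.01 in cKO 1 (0.963 to 1.07) and 0.784 in cKO 2 (0.741 to 0.829), so cKO 2 was the low library. Between the cKO libraries, Plxnd1 was 1.295 times as high in cKO 1 as in cKO 2 (1.23 to 1.37). The endothelial list had a median log2 ratio of 0.15 in cKO 1 and -0.86 in cKO 2, against 0.02 and -0.35 for Plxnd1, and its part in the Plxnd1 level was not tested.

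Both neuropilin genes lay below floxed in both cKO libraries. Nrp2 (chromosome 1, 62703285 to 62818695, plus strand) had 2525 counts in cKO 1 and 2443 in cKO 2, against 2803 in floxed, or 129 and 132 CPM, against 157 CPM. The ratio was 0.823 in cKO 1 (0.780 to 0.869) and 0.837 in cKO 2 (0.792 to 0.884), with a fitted log2 fold of -0.27 (SE 0.13, edgeR adjusted p = 1). Nrp1 (chromosome 8, 128358604 to 128503363, plus strand), the receptor component for Sema3a and a VEGF coreceptor, had 699 and 601 counts, against 712 in floxed, or 35.8 and 32.3 CPM, against 39.9 CPM. The ratio was 0.897 in cKO 1 (0.807 to 0.998) and 0.810 in cKO 2 (0.726 to 0.905), with a fitted log2 fold of -0.23 (SE 0.17, edgeR adjusted p = 1). Per kilobase, the mean level of Nrp2 was 11.8 CPM per kb and that of Nrp1 3.68 CPM per kb, and their library ranges did not overlap. Summed over both genes, neuropilin counts were 165 CPM in cKO 1 and 164 CPM in cKO 2, against 197 CPM in floxed. Upper-layer neuron markers lay below floxed in 7 of 8 members in cKO 1 and in 8 of 8 in cKO 2 (medians -0.40 and -0.56). Interneuron markers did so in 8 of 10 and 7 of 10 (medians -0.09 and -0.28). The part of either cell type in Nrp1, Nrp2 and Plxna4 was not tested.

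RefSeq start-site sequences (GRCm38.p6, 250 bases before to 50 after the start) were available for 26 of the 31 genes. Those of Plxnc1, the gene with the smallest unadjusted p, and of Sema3d and Sema3g, called past 1.5-fold in 1 library each, are printed 5′ to 3′ on the gene's strand, with matches to the GC box GGGCGG on either strand in capitals.
Plxnc1, chr10:94944796-94945095, minus strand: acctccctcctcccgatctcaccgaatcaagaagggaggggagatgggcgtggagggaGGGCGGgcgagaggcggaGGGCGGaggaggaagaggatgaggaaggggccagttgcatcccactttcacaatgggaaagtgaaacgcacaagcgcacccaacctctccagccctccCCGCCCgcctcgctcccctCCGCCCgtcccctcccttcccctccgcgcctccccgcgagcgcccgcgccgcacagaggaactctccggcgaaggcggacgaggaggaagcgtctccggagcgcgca
Sema3d, chr5:12382916-12383215, plus strand: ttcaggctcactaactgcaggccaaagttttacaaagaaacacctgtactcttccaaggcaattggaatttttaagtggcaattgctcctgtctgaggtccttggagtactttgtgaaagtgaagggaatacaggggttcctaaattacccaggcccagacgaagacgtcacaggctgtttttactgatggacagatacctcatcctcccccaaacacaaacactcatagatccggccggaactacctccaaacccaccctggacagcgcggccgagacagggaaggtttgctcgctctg
Sema3g, chr14:31217623-31217922, plus strand: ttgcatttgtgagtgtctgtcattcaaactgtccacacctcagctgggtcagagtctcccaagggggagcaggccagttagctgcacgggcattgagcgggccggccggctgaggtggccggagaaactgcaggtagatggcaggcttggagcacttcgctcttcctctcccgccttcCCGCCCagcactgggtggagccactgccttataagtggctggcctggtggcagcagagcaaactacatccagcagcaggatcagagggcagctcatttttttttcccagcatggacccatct
The Plxnc1 sequence holds 4 GC boxes and 30 CG dinucleotides, that of Sema3d 0 and 8, and that of Sema3g 1 and 8, where 35.7% of 32851 mouse start-site sequences hold a GC box and the median number of CG dinucleotides is 7. At least 1 start-site sequence with a GC box was found for 21 of the 26 genes, which have 37 sequences between them. The 35.7% is a share of sequences, so it is no background for this count of genes. These matches describe the letters in the window, and counts over whole genes do not show which start site was used.

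The wider pathway was described by 3 lists of genes that are not members: other ligands and coreceptors of plexins and neuropilins, GTPase regulators, and kinases with cytoskeletal effectors. None of the 20, 23 and 28 tested genes passed edgeR's test, and DESeq2 also called 0. The coreceptor list had a median log2 ratio of 0.14 in cKO 1 and -0.19 in cKO 2, against 0.01 and -0.04 over all tested genes. In cKO 1, 1 of its 20 genes was called lower past 1.5-fold (background 2.34%) and 0 higher (3.72%), and in cKO 2, 4 were called lower (9.62%) and 0 higher (2.4%). These 4 were the VEGF receptor gene Kdr (54.7 and 23.2 CPM, against 43.5 CPM in floxed), its lymphatic relative Flt4 (10.6 and 5.97 CPM, against 10.4 CPM), the integrin gene Itga1 (5.58 and 2.69 CPM, against 4.82 CPM) and Cd72, a binding partner of Sema4d on immune cells (1.64 and 1.67 CPM, against 2.86 CPM). Cd72 was also the gene called in cKO 1. For Kdr, Flt4 and Itga1, cKO 1 was the highest library and cKO 2 the lowest, the order also seen for the endothelial list, of which Kdr is a member. Vegfa, the neuropilin ligand of the VEGF family, was named after its values were seen and had 68.5 and 61.2 CPM, against 68.2 CPM.

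The GTPase list had medians of 0.09 in cKO 1 and -0.03 in cKO 2. In it 0 genes were called in cKO 1, and 1 was called lower in cKO 2, the small GTPase gene Rhod (2.97 and 1.18 CPM, against 2.41 CPM). The list of kinases and cytoskeletal effectors had medians of -0.08 and -0.02. In it 0 genes were called in cKO 1, and 1 was called lower in cKO 2, Fes, a kinase that binds plexin-A1 (7.89 and 4.20 CPM, against 6.45 CPM). The 5 genes of the collapsin response mediators, which carry the Sema3a signal to microtubules, were chosen after their values were seen. Among them Dpysl3 lay below floxed, with 1801 and 1628 CPM, against 2031 CPM, as did Dpysl5, with 910 and 979 CPM, against 1068 CPM, and Crmp1, with 1479 and 1605 CPM, against 1626 CPM. Dpysl2 had 594 and 572 CPM, against 541 CPM, and Dpysl4 had 145 and 171 CPM, against 151 CPM. None of these 5 genes was called past 1.5-fold.

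**Figure D4:**
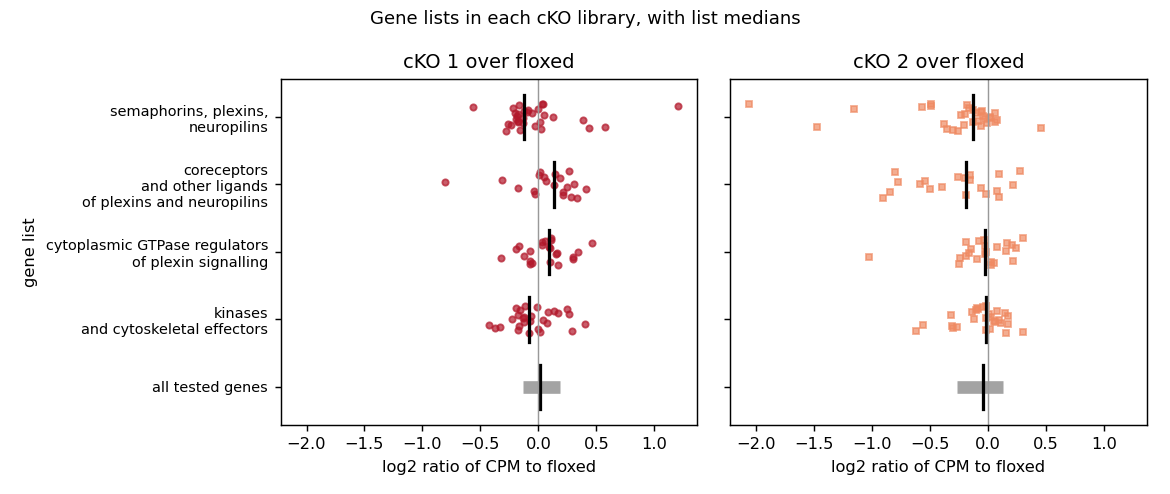
Log2 ratio of CPM to floxed (x axis) in cKO 1 (left panel) and cKO 2 (right panel) for the 31 members and the 3 pathway lists, with 1 symbol a gene and the list median as a black line; the grey bar gives the interquartile range of all tested genes. The member median is -0.13 in each panel, and the coreceptor median is 0.14 in cKO 1 and -0.19 in cKO 2.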

How the data were processed

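The authors deposited 2 tables, each with raw counts per gene of 1 cKO library and the same floxed library, per the file headers. Column names hold KO or WT, which ties them to a group but not to a sample. These 2 tables hold the same 1 floxed library, so the other floxed sample was not analysed here. The floxed counts were identical in both tables for all 19968 shared genes and were used once. Bowtie2 2.2.3, TopHat2 2.0.12 and HTSeq 0.6.0 with mm9 are named in the submitters' processing notes. The deposited positions are called GRCm38 here, since 27 of 31 members, and 17844 of 19913 genes with an ID in GENCODE M21, had identical ones there. The deposited normalized values are CPM, from which library totals were recovered. The authors' deposited fold (a ratio of these CPM), its log2 and the authors' p-values compare 1 library with 1, by a test not given in the sources used here.

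The quasi-likelihood test of edgeR 4.0.16 (R 4.3.3) was run on counts scaled to library totals, after the expression filter at a minimum count of 10. The SE of a log2 fold is its size over the square root of F. DESeq2 1.42.0, limma 3.58.1 (voom), TMM, RLE, no filter, other folds and leaving out a cKO library were alternatives. The fit was also run on simulated counts, which were set to less spread between libraries than the fit estimated here. That run does not show what size of change the fit can find in these libraries. Exon lengths come from GENCODE M21. Intervals cover counting error only, since reads carry no molecular identifiers; 3 counts are 0.154, 0.161 and 0.168 CPM in cKO 1, cKO 2 and floxed. The kit does not mark strand, so antisense reads cannot be told apart. P-values reflect only how far these libraries spread, possibly for technical reasons. Named genes are all members, with counts and levels for those past 1.5-fold, the 3 highest per length of a family or the 5 smallest p; pathway genes past 1.5-fold; and Prdm16. Other named genes were chosen after their values were seen. Members, lists and rules were chosen with earlier results of these data known. Triplicates are mentioned in the series' design text, but 2 samples a group in the labels.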

Additional observations from a re-analysis of the deposited data

How the results depend on the processing

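The edgeR test called 0 members under every normalization and filter tried, as did DESeq2 and limma-voom. Over all genes, edgeR called 1 gene with library totals (256 at an unadjusted p under 0.05), 0 with TMM (217), 0 with DESeq2 size factors (211) and 0 without a filter (412), DESeq2 called 5 (98) and limma-voom 1 (264). At an absolute log2 ratio of 0.32 in place of 0.58 (1.5-fold), 3 members were higher in cKO 1 (background 8.03%) and 1 in cKO 2 (5.63%), and 5 were lower in cKO 2 (13.9%); at 2-fold, with TMM or without the interval, these counts stayed within 1.5 times the reported ones. No member's fitted log2 fold changed direction in 155 values under the other fits. With either cKO library left out, no test can be had, and 10 members took the opposite direction: log2 ratios ranged from -0.49 to 0.04 for Sema3a, from -2.06 to 0.03 for Sema3b, from -0.49 to 1.2 for Sema3d, from -0.21 to 0.06 for Sema4f, from -0.23 to 0.05 for Sema5a, from -0.14 to 0.01 for Sema6b, from -0.17 to 0.06 for Plxna1, from -0.13 to 0.02 for Plxna2, from -1.47 to 0.57 for Plxnb3 and from -0.35 to 0.02 for Plxnd1. The 3 highest genes of each family by level per kilobase were also the highest with the longest transcript as the length, with Sema4g and Sema4c in the opposite order. The order over all members did change with that length. Sema4g was then the highest, at 55.9 CPM per kb, against 43.1 for Sema6c, and Plxna2 (35.3) came above Sema7a (32.7). No paired analysis was possible because only 1 floxed library was used and the columns do not show which library belongs to a sample titled Blood. For the 5 members under 10 CPM, counts of 3 to 152 a library limit what can be seen.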

Other observations

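Among the pathway genes, 2 had an unadjusted edgeR p under 0.05, as did 1.53% of all tested genes, and both were chosen after their values were seen. Kif21b, a kinesin gene, had 730 CPM in cKO 1 and 768 CPM in cKO 2, against 948 CPM in floxed, with a fitted log2 fold of -0.34 (SE 0.14, edgeR adjusted p = 1). Micall1, a relative of the redox enzymes that act downstream of plexins, had 20.95 and 19.05 CPM, against 28.1 CPM, with a fitted log2 fold of -0.49 (SE 0.21, edgeR adjusted p = 1).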
